A study of Mus musculus with 18 samples.

Results

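CD38KO bone marrow-derived macrophages (BMDMs) were compared with WT BMDMs after both had been exposed to monosodium urate (MSU) crystals, the crystals that form in gouty joints. The comparison used 3 libraries of CD38KO + MSU and 3 libraries of WT + MSU, which are 6 of the 18 libraries of the series. Genes entered it if their FPKM reached 1 in 3 or more of the 18 libraries, which left 12025 of 55450 genes. The study gives WT and CD38KO mice as both on the C57BL6/J background and of either sex, and the CD38KO mice carry a deletion of Cd38. Marrow cells were grown with L929 conditioned medium, exposed to GM-CSF (20 ng/ml) over 24 hours as priming, and moved to medium with little serum and MSU crystals (0.2 mg/ml) over 6 hours. CD38KO non-treated and WT non-treated BMDMs, with 3 libraries each, had the same priming and no crystals. The other libraries of the series were of WT BMDMs given the CD38 inhibitor apigenin with or without MSU, 3 libraries for each. These entered the gene filter, the scaling of counts and the estimate of the spread. The labels do not say from which animals the 3 replicates of a group came, so the p-values measure the spread between these libraries.

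CD38 is a membrane enzyme that breaks down NAD and also makes cyclic ADP-ribose, a messenger that releases calcium. It is made by many immune cells and is induced when macrophages are activated. Macrophages that take up MSU crystals assemble the NLRP3 inflammasome, which matures the cytokine IL-1β, and release CXC chemokines that call neutrophils into the joint.

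Total counts were 66621883 to 81939324 in the WT + MSU libraries and 68766678 to 74140098 in the CD38KO + MSU libraries, and counting error was small beside the spread between replicates. On the first principal component, which held 50.7% of the variance of the 6 libraries, the genotypes lay on opposite sides. The summed level of 12 macrophage markers was 24435 to 27365 CPM (read counts scaled to library size with TMM factors) in WT + MSU and 16443 to 27979 CPM in CD38KO + MSU, with no marker at 0. In CD38KO + MSU replicates 1 and 3 the sum was 16443 and 17646 CPM, below every WT + MSU library. Of the 12 markers, 10 had a negative log2FC and Cd14 alone was called. The libraries of WT + MSU were not alike. The neutrophil granule gene Ngp was at 54.0, 87.9 and 1.59 CPM in WT + MSU replicates 1, 2 and 3 and at 1.63 to 2.82 CPM in CD38KO + MSU. Ifi202b, an interferon-inducible gene whose level differs among inbred mouse strains, was at 135.0, 153.0 and 0 CPM in WT + MSU and at most 0.207 CPM in CD38KO + MSU. Xist, which is transcribed in female cells, was at 67.8, 0.119 and 74.6 CPM in WT + MSU and at most 0.0492 CPM in CD38KO + MSU. The Y-linked gene Eif2s3y was at 25.6, 52.2 and 0 CPM in WT + MSU, so replicate 1 held both transcripts, and at 43.8 to 60.6 CPM in CD38KO + MSU. The part of these differences in the results was not tested.

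Cd38 was at 36.1, 69.4 and 42.1 CPM in WT + MSU and at 0.639, 1.17 and 1.04 CPM in CD38KO + MSU. The lowest WT library was far above the highest CD38KO library, as the genotype labels state. The mean level was 51.8-fold lower in CD38KO + MSU, with a log2FC of −5.69 ± 0.43 (SE; edgeR quasi-likelihood test, adjusted p = 9.65e-06), and the call held in 18 of 18 other settings. Cd38 lies on chromosome 5 from 43868553 to 43912375 on the forward strand (GRCm38, GENCODE M21). Its neighbour and closest relative Bst1 lies before it, from 43818885 to 43843986 on the same strand, and encodes CD157, a surface enzyme that also cleaves NAD. Bst1 was at 16.6, 17.5 and 16.9 CPM in WT + MSU and at 43.2, 40.7 and 41.8 CPM in CD38KO + MSU. The replicates of each genotype lay close together and the genotypes did not overlap. Bst1 was 2.46-fold higher in CD38KO + MSU (log2FC 1.30 ± 0.13, adjusted p = 1.75e-04), and fitting the 2 groups by themselves also called it. Without MSU, Bst1 was again higher in CD38KO (log2FC 1.15, adjusted p = 3.09e-04).

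Under MSU, 319 genes were lower and 86 genes were higher in CD38KO than in WT BMDMs, 2.65% and 0.715% of the 12025 genes tested. Calls required a p under 0.05 after Benjamini-Hochberg adjustment across the tested genes, together with a log2FC whose size reached 1. The lower genes had the larger differences. Their median log2FC was −2.52, 226 of the 319 reached a size of 2 and 84 a size of 3. The higher genes had a median log2FC of 1.48, and 21 of the 86 reached a size of 2. The median over all tested genes was 0.03. The 3 libraries of each genotype did not overlap for all 319 lower and for 85 of the 86 higher genes, against 27.6% of all tested genes. This is a description, since the call used the same libraries. Within WT + MSU, replicate 2 had the highest level for 282 of the 319 lower genes and replicate 3 the lowest for 243. At the median of these genes, replicates 1, 2 and 3 were 4.78-fold, 9.01-fold and 3.39-fold above the mean of CD38KO + MSU. Within CD38KO + MSU, replicate 2 had the lowest level for 65 of the 86 higher genes.

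These counts rested on how the spread was estimated and on single libraries. Fitting the 2 groups by themselves called 8 lower genes (Cd38, Adnp, Ltbp2, Axl, Cyp1b1, Klhdc10, Wfs1 and Rpl34-ps1) and 6 higher ones (Mcub, Abi2, Rpl34, Bst1, Rab11b and Gm20716), of which 6 and 5 are among the 319 and 86. Cyp1b1, Klhdc10 and Gm20716 are not. Some of these genes varied widely within groups without MSU. There Rab11b was at 148.0, 57.6 and 148.0 CPM in CD38KO and at 53.8, 124.0 and 149.0 CPM in WT. Klhdc10 was at 3.01, 24.7 and 25.6 CPM in CD38KO and at 34.3, 30.8 and 4.9 CPM in WT, so the genotypes overlapped for both. Abi2 was at 1.98, 28.2 and 13.1 CPM in WT without MSU. Fitting the 4 groups without apigenin gave 333 lower and 97 higher genes. Without CD38KO + MSU replicate 1 the counts were 30 and 18, and without WT + MSU replicate 2 they were 45 and 20. With replicate 3 as the one library of each WT group, 8 were lower and 15 higher. Every one of the 319 and of the 86 genes kept its sign in each setting in which it was tested.

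**Figure D1:**
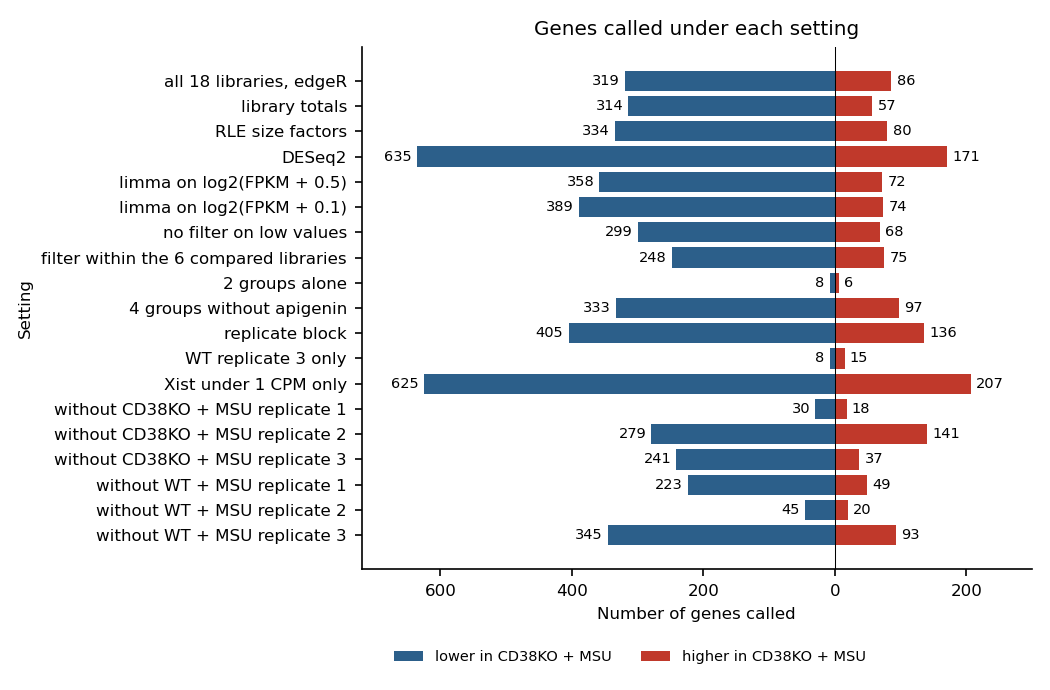
Number of genes lower (bars to the left, blue) and higher (bars to the right, red) in CD38KO + MSU than in WT + MSU under each setting, with the counts given in the text at the top. The 319 and 86 genes became 8 and 6 when the 2 groups were fitted by themselves, and 635 and 171 with DESeq2.

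Calls that held whichever of the 6 libraries was left out numbered 25 of the 319 lower genes and 16 of the 86 higher genes. Only some of these 41 genes are named here, and they were picked after their values were seen. Among the lower ones were Cxcl12, Vegfa, Cd14, Axl, Ptx3, the prostaglandin synthase gene Ptges and the zinc and iron importer gene Slc39a14. The oxygen-response genes Egln3 and Epas1, which encodes the transcription factor HIF-2α, were lower too. Others act on matrix or its cross-linking (Mmp14, Ltbp2, P4ha3, Plod2 and Serpine2). In WT + MSU, Cxcl12, Ptges, Ptx3, Epas1, P4ha3, Plod2 and Serpine2 were highest in replicate 2 and lowest in replicate 3. The fibroblast marker sums given below had the same order. Vegfa, Cd14, Axl, Slc39a14, Egln3, Mmp14 and Ltbp2 did not have this order. The part of fibroblast content in these calls was not tested. Among the higher ones were the chemokine gene Ccl6, the mitochondrial calcium uniporter subunit gene Mcub, the lysosomal protease gene Ctsk, Rgs18, Ero1lb, Slfn8, Ivd, Ak8 and Bst1.

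**Figure D2:**
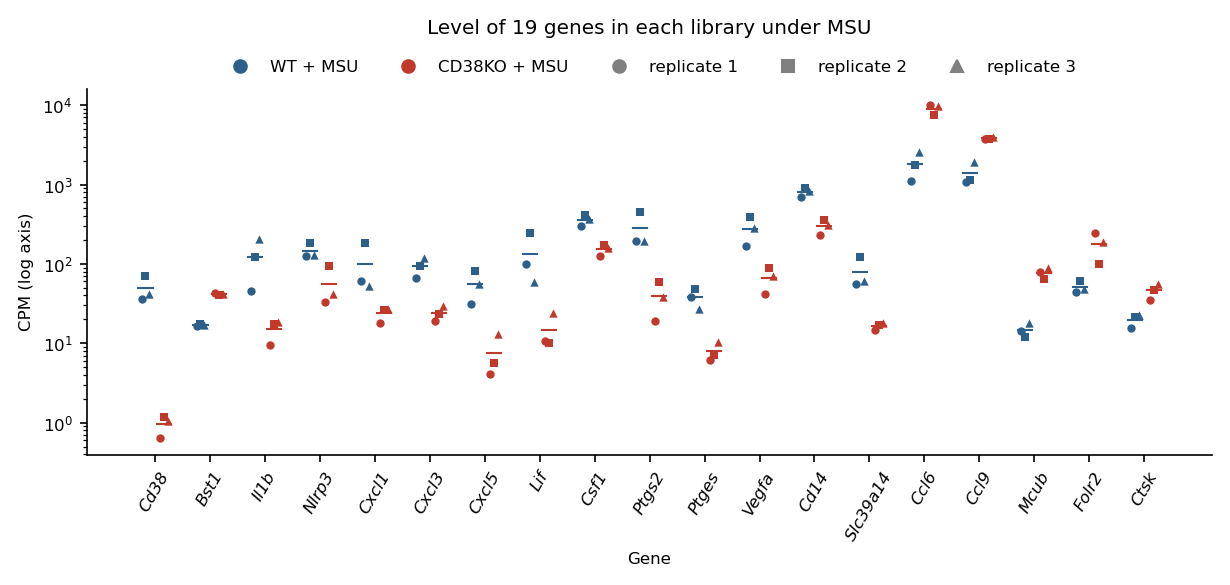
Level of 19 genes in each library under MSU, in CPM on a log axis, for WT + MSU (blue) and CD38KO + MSU (red). Marker shapes give the replicate and lines the mean of the 3 libraries, and all 19 genes were called, from Cd38 at 51.8-fold lower to Mcub at 5.28-fold higher in CD38KO + MSU.

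In the IL-1 family and inflammasome list, 3 of 17 tested genes were lower, 1 was higher and the list median was −0.45. For this list and those below, the shares over all tested genes are 2.65% lower and 0.715% higher. A list with 1 call or none was not read as a result about the list. Il1b, which encodes IL-1β, was at 46.0, 121.0 and 204.0 CPM in WT + MSU and at 9.42, 17.3 and 18.3 CPM in CD38KO + MSU. All CD38KO libraries lay below all WT libraries, although the WT libraries themselves spread over a wide range. The mean was 8.23-fold lower (log2FC −3.04 ± 0.65, adjusted p = 0.0208). Nlrp3, the sensor of the inflammasome, was at 124.0, 183.0 and 129.0 CPM in WT + MSU against 32.8, 94.6 and 41.8 CPM in CD38KO + MSU (adjusted p = 0.0471, log2FC −1.36 ± 0.36). Il1r1, the signalling receptor of IL-1, was 4.55-fold lower (log2FC −2.19 ± 0.48, adjusted p = 0.0224). Pycard, which encodes the adaptor ASC that joins NLRP3 to caspase-1, went the other way. It was at 27.9, 19.2 and 26.5 CPM in WT + MSU and at 55.8, 36.3 and 83.3 CPM in CD38KO + MSU (adjusted p = 0.0278, log2FC 1.25 ± 0.29). Omitting CD38KO + MSU replicate 1 or WT + MSU replicate 2, or fitting the 2 groups by themselves, ended the calls of these 4 genes. Omitting WT + MSU replicate 3 also ended those of Il1b and Nlrp3, omitting WT + MSU replicate 1 or CD38KO + MSU replicate 3 those of Nlrp3 and Pycard, and omitting CD38KO + MSU replicate 2 that of Il1r1. Nlrp3 was called in 8 of 18 other settings, Pycard in 10, Il1r1 in 12 of 17 and Il1b in 13 of 18.

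CXC chemokines had the lowest median of the 28 lists, −1.70, with 4 of 11 tested genes lower and none higher. Those lower were Cxcl1, Cxcl3 and Cxcl5, which draw neutrophils through the receptor CXCR2, and Cxcl12, a stromal chemokine that holds leukocytes in the marrow. Cxcl3 was at 67.1, 93.2 and 120.0 CPM in WT + MSU and at 19, 23.3 and 29.5 CPM in CD38KO + MSU. The genotypes did not overlap (log2FC −1.97 ± 0.42, adjusted p = 0.0200). Cxcl5 was 7.44-fold lower (log2FC −2.90 ± 0.52, adjusted p = 0.00978) and Cxcl1 4.15-fold lower (log2FC −2.05 ± 0.55, called in 8 of 18 other settings). Cxcl12 was at 46.2, 96.5 and 31.5 CPM in WT + MSU and at 5, 4.44 and 4.14 CPM in CD38KO + MSU. Its call held whichever library was left out (log2FC −3.68 ± 0.45, adjusted p = 0.00116), while those of the other 3 were lost on omitting CD38KO + MSU replicate 1 or WT + MSU replicate 2. The summed level of 9 fibroblast markers, which moved in the same direction, was 755 to 4438 CPM in WT + MSU and 174 to 347 CPM in CD38KO + MSU, and their part in the level of Cxcl12 was not tested.

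The CC chemokines differed from this pattern, with 2 of 13 tested genes higher, none lower and a median of 0.25. This rested on the setting, since DESeq2 and both limma fits on FPKM called 2 lower beside 2 higher. With RLE factors 1 was higher and none lower, and without MSU the list median was −0.61. The 2 higher in the fit of all 18 libraries were the neighbouring genes Ccl6 and Ccl9. Their products attract monocytes in the mouse and act through the receptor CCR1. Ccl6 was at 1104, 1758 and 2537 CPM in WT + MSU and at 9958, 7503 and 9672 CPM in CD38KO + MSU. The lowest CD38KO library was well above the highest WT library (log2FC 2.33 ± 0.33, adjusted p = 0.00248). Ccl9 was at 1076, 1125 and 1941 CPM in WT + MSU and at 3777, 3718 and 3915 CPM in CD38KO + MSU (adjusted p = 0.0471, log2FC 1.46 ± 0.39). Its CD38KO libraries were nearly equal, but the call was lost on leaving out any of 5 of the 6 libraries, with WT + MSU replicate 3 as the exception.

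The sequences upstream of Cxcl1, Cxcl3, Lif and Ccl9 are shown because these cytokine genes differed in opposite directions while each holds a match to the NF-κB consensus. They are the 250 bases before the annotated start in RefSeq on GRCm38.p6, written 5′ to 3′ along the strand of the gene, with the matched letters in capitals. Cxcl1 is chr5:90890995-90891244, Cxcl3 is chr5:90785851-90786100 and Lif is chr11:4257318-4257567, all on the forward strand, and Ccl9 is chr11:83578637-83578886 on the reverse strand.
Cxcl1: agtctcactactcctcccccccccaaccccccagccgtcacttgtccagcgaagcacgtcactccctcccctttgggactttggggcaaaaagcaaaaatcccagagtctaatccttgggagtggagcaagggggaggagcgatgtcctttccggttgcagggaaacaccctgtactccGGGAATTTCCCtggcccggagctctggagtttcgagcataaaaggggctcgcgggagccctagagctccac
Cxcl3: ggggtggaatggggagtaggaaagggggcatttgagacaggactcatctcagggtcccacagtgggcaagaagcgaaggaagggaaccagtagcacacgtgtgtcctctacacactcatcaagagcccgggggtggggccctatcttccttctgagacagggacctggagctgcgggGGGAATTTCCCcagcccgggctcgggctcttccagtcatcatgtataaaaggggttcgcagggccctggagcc
Lif: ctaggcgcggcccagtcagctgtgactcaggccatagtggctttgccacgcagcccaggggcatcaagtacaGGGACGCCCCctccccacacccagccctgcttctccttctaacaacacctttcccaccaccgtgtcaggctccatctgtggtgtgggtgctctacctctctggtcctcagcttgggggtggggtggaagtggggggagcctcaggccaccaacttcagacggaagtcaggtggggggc
Ccl9: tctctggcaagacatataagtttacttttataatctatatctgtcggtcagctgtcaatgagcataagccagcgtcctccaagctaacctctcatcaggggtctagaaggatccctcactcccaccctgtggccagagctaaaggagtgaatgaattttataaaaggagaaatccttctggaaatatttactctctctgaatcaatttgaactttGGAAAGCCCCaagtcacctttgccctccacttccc
In Cxcl1 and Cxcl3 the same 11 letters matched, beginning 71 and 73 bases before the start, since the site reads as a match on both strands. The matches in Lif and Ccl9 had 10 letters and began 178 and 35 bases before the start. Among the lower genes with a promoter in RefSeq, 37 of 212 (17.5%) held such a match on either strand in 300 bases around the start. The share was 8 of 65 (12.3%) for the higher genes and 1031 of 8341 (12.4%) for all tested genes. The AP-1 motif TGANTCA was found in 10.4% of the lower, 15.4% of the higher and 6.23% of all tested genes. The cyclic AMP response motif TGACGTCA was found in 2.36%, 1.54% and 3.62%. These are shares of letters in a window and no test was run on them.

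Of the other cytokines, 2 of 16 tested genes were lower and the median was −1.09. Lif, a cytokine of the IL-6 family, was at 99.8, 242.0 and 58.4 CPM in WT + MSU and at 10.7, 10.0 and 23.8 CPM in CD38KO + MSU. The mean was 8.99-fold lower (log2FC −3.17 ± 0.65, adjusted p = 0.0180). Csf1, the growth factor that macrophages depend on, was at 304.0, 412.0 and 369.0 CPM against 126.0, 173.0 and 159.0 CPM (log2FC −1.24 ± 0.23, adjusted p = 0.0120). Among 25 receptors of cytokines and chemokines, Osmr, the oncostatin M receptor, was 9.64-fold lower (log2FC −3.27 ± 0.56, adjusted p = 0.00837). Il4ra, the IL-4 receptor chain, had a log2FC of −1.08 ± 0.28 (adjusted p = 0.0424) and was called in 7 of 18 other settings. Ccr3, a receptor for eotaxins, was higher, at 0.920, 1.25 and 1.10 CPM in WT + MSU and 19.7, 3.55 and 16.6 CPM in CD38KO + MSU (adjusted p = 0.0307, log2FC 3.60 ± 0.86). Other eosinophil markers were not higher with it, with Epx at 0 CPM and Prg2 at no more than 0.372 CPM in the CD38KO libraries. Omitting CD38KO + MSU replicate 1 ended all 5 calls, and omitting WT + MSU replicate 2 ended those of Lif, Csf1, Il4ra and Ccr3. Osmr was at 30.1, 65.3 and 20.5 CPM in WT + MSU, and its WT libraries and those of Lif had the same order as the fibroblast marker sums (replicate 2 highest, replicate 3 lowest), whose part in these results was not tested.

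Early transcription factor genes were lower in part. Of 23 immediate early genes 5 were lower, none was higher and the median was −0.64. The nuclear receptor genes Nr4a1 and Nr4a2 were 5.16-fold and 3.96-fold lower. Nr4a2 was at 6.42, 10.2 and 13.5 CPM in WT + MSU and at 1.83, 2.48 and 3.27 CPM in CD38KO + MSU (adjusted p = 0.0195, log2FC −1.99 ± 0.42). Egr3 and Ier2, which growth factors induce within minutes to hours, had log2FC values of −2.48 ± 0.67 and −1.71 ± 0.41. Fosl2, an AP-1 subunit, had a log2FC of −1.45 ± 0.36 (adjusted p = 0.0372). Omitting either CD38KO + MSU replicate 1 or WT + MSU replicate 2 ended all 5 calls. None of 22 NF-κB subunits and feedback inhibitors was called, with a median of −0.41. Nfkbiz, which encodes the inducible IκBζ, was lowest among them, at 17.0, 48.0 and 33.8 CPM in WT + MSU and 7.22, 21.5 and 8.28 CPM in CD38KO + MSU (adjusted p = 0.408, log2FC −1.42 ± 0.90). None of 13 MAPK phosphatase and Sprouty genes was called either, and the 2 with the lowest values were Spry4 (log2FC −2.37 ± 1.23, adjusted p = 0.301) and Dusp6 (−1.26 ± 0.43, adjusted p = 0.113).

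Prostaglandin E2 is made by cyclooxygenase-2, the product of Ptgs2, and then by the terminal synthase encoded by Ptges. Both genes were lower, the 2 called of 18 genes of prostaglandin and leukotriene synthesis. Ptges was at 37.8, 48.8 and 27.3 CPM in WT + MSU and at 6.16, 7.10 and 10.4 CPM in CD38KO + MSU (adjusted p = 0.00432, log2FC −2.27 ± 0.36), and its call held whichever library was left out. Ptgs2 was at 192.0, 451.0 and 196.0 CPM against 18.8, 59.8 and 38.1 CPM (log2FC −2.85 ± 0.69, adjusted p = 0.0313). Its call was lost without CD38KO + MSU replicate 1 or 3 and without WT + MSU replicate 2.

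Genes of metal handling and of the response to oxygen were lower in part as well, against 2.65% of all tested genes. Of 21 iron and copper genes 3 were lower. Slc39a14, which carries zinc and iron into cells, was at 55.3, 123.0 and 61.4 CPM in WT + MSU and at 14.6, 17.0 and 18 CPM in CD38KO + MSU (adjusted p = 0.00174, log2FC −2.27 ± 0.30). The metalloreductase gene Steap2 was 11.9-fold lower (log2FC −3.57 ± 0.68, adjusted p = 0.0130) and the mitochondrial iron importer gene Slc25a37 3.17-fold lower (log2FC −1.67 ± 0.44, called in 9 of 18 other settings), and both calls were lost on omitting CD38KO + MSU replicate 1 or WT + MSU replicate 2. Of 26 genes of glycolysis and hypoxia 4 were lower. Vegfa, the vascular growth factor gene, was at 169.0, 386.0 and 282.0 CPM in WT + MSU and at 42.2, 89.3 and 69.9 CPM in CD38KO + MSU. It was 4.16-fold lower (log2FC −2.06 ± 0.32, adjusted p = 0.00408). Egln3, a prolyl hydroxylase that hypoxia induces, had a log2FC of −2.47 ± 0.38 (adjusted p = 0.00408). Hif1a and the glycolytic gene Pfkl were lower by smaller amounts, with log2FC values of −1.17 ± 0.29 and −1.18 ± 0.28, and their calls were lost without CD38KO + MSU replicate 1 or 3 and without WT + MSU replicate 2.

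Other metabolic and stress lists held a few calls each, against 2.65% lower over all tested genes. Of 21 NRF2 and glutathione genes 2 were lower, Sod3, the extracellular superoxide dismutase gene, and Slc7a11, the cystine importer gene (log2FC −2.16 ± 0.41 and −1.86 ± 0.44). Slc7a11 was at 149.0, 229.0 and 287.0 CPM in WT + MSU and at 27.9, 118.0 and 38 CPM in CD38KO + MSU. It is also 1 of the 4 genes lower among 19 targets of the stress factor ATF4, with Ddit4, Chac1 and the amino acid transporter gene Slc7a5. Of 22 genes of scavenger receptors and lipid handling, Angptl4, an inhibitor of lipoprotein lipase, was lower (log2FC −2.61 ± 0.68, adjusted p = 0.0424). In the surface receptor lists, Cd14, a co-receptor for lipopolysaccharide, was at 694.0, 892.0 and 827.0 CPM in WT + MSU and at 233.0, 361.0 and 312.0 CPM in CD38KO + MSU (adjusted p = 0.00495, log2FC −1.41 ± 0.23). The costimulator gene Cd86 was 2.89-fold lower (log2FC −1.53 ± 0.41, adjusted p = 0.0489, called in 7 of 18 other settings). Of these genes, Cd14 alone stayed called on omitting CD38KO + MSU replicate 1 or WT + MSU replicate 2.

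Steap4, Ch25h, Olr1 and Gpr176 did not pass the test in this comparison. Steap4, a metalloreductase gene, had a log2FC of −4.24 (adjusted p = 0.122) with a mean of 12.3 ± 8.95 CPM (SD) in WT + MSU against 0.651 ± 0.248 CPM in CD38KO + MSU. Its groups did not overlap, and it was called in 4 of 18 other settings. Ch25h, which makes 25-hydroxycholesterol, had a log2FC of −2.85 (adjusted p = 0.0800). The groups did not overlap for Ch25h either, and 3 of 18 other settings called it. Without MSU, Ch25h was lower in CD38KO (edgeR, log2FC −5.81, adjusted p = 0.0043), while Steap4 and Olr1 were not called. Olr1, the LOX-1 receptor gene, had a log2FC of −1.05 (adjusted p = 0.217) and its groups overlapped. Gpr176, an orphan receptor gene, was at 0.836, 15.2 and 17.2 CPM in CD38KO + MSU and at a mean of 0.671 CPM in WT + MSU. One of its CD38KO libraries was at the level of WT, and it did not pass the test (log2FC 4.04, adjusted p = 0.395). Without MSU it was at 26.7, 0.421 and 0.120 CPM in CD38KO and 0.508, 36.5 and 0.187 CPM in WT.

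**Figure D3:**
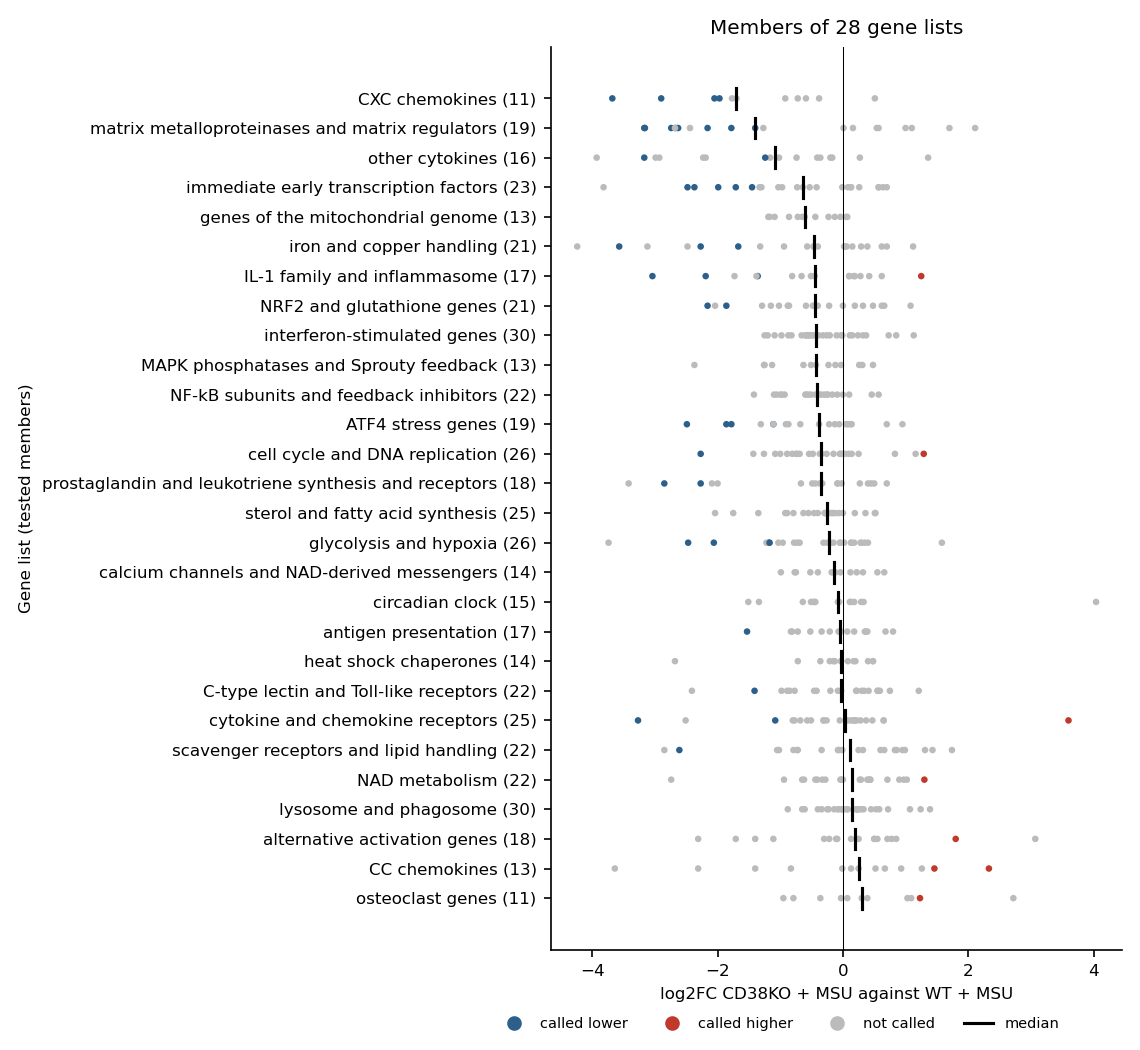
log2FC of CD38KO + MSU against WT + MSU for the tested members of 28 gene lists, 1 row per list with the number of tested members in parentheses. Blue and red points are called lower and higher, grey points are not called and black bars are medians, which run from −1.70 for the CXC chemokines to 0.30 for the osteoclast genes.

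Genes of extracellular matrix and of stromal cells were among the lower genes. Of 19 matrix metalloproteinases and matrix regulators 8 were lower, none was higher and the median was −1.40. Mmp2, a gelatinase gene, was 8.98-fold lower (log2FC −3.17 ± 0.65). The calls of Mmp2 and Postn were lost on omitting CD38KO + MSU replicate 1 or WT + MSU replicate 2. Of 9 fibroblast markers 7 were lower with a median of −3.09. Col1a1, a collagen chain gene, was at 598.0, 1665 and 232.0 CPM in WT + MSU and at 79.6, 64.9 and 127.0 CPM in CD38KO + MSU (adjusted p = 0.0399, log2FC −3.20). Every library of WT lay above every library of CD38KO, with replicate 2 the highest and replicate 3 the lowest of WT. Postn, which encodes the matrix protein periostin, was at 87.4, 206.0 and 29.0 CPM against 2.25, 8.28 and 1.46 CPM (log2FC −4.75 ± 1.05, adjusted p = 0.0230). Sulf1 (log2FC −4.20), Ogn (−4.07), Fstl3 (−4.13) and Prss23 (−4.63) were lower as well. With replicate 3 as the one library of each WT group, no fibroblast marker was called and their median was −1.67. None of 7 tested endothelial markers was called, with a median of −2.19, and the summed level of 8 was 34.5 to 82.0 CPM in WT + MSU and 8.95 to 16.8 CPM in CD38KO + MSU. DESeq2 called 6 of the 7 lower, while both limma fits on FPKM called none. Without MSU, 5 of the 7 were lower. In bulk RNA, fewer cells of a type and less RNA per cell cannot be told apart.

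**Figure D4:**
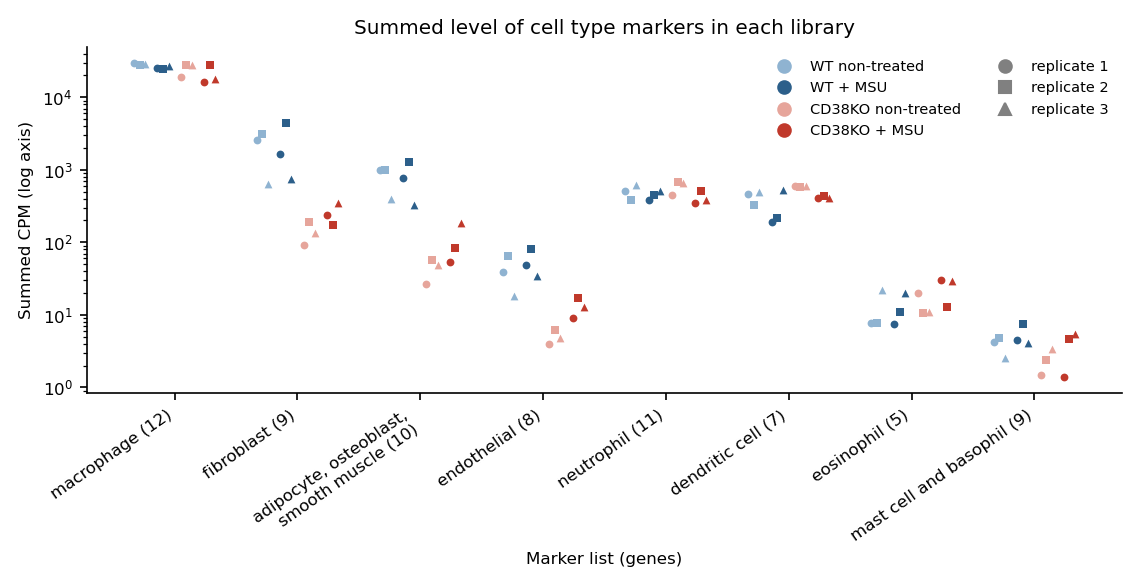
Summed CPM of the marker genes of 8 cell types in each library, on a log axis, for 4 groups of 3 libraries, with marker shapes giving the replicate. The fibroblast sums were 755 to 4438 CPM in WT + MSU and 174 to 347 CPM in CD38KO + MSU. The macrophage sums overlapped through CD38KO + MSU replicate 2.

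The neutrophil markers differed among the WT libraries. Of 9 tested none was called and the median was −3.72, but it was 0.38 with replicate 3 as the one library of each WT group. DESeq2 called 4 of the 9 lower, the fit with a replicate block 1, and the fit of the libraries whose Xist was under 1 CPM, which holds 1 WT + MSU library, 8. Their summed levels overlapped, at 381 to 509 CPM in WT + MSU and 348 to 510 CPM in CD38KO + MSU, where Mmp8 alone made up 123.0 to 493.0 CPM of the WT sums and Ly6g was at 0 in all 6 libraries.

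The genes higher in CD38KO + MSU, 0.715% of all tested genes, came with few members from any list. Mcub, a subunit that lowers the activity of the mitochondrial calcium uniporter, was at 14.1, 12.1 and 17.9 CPM in WT + MSU and at 78.1, 65.0 and 89.8 CPM in CD38KO + MSU. The genotypes lay far apart (log2FC 2.40 ± 0.22, adjusted p = 7.39e-05), and fitting the 2 groups by themselves kept the call. Ero1lb, an oxidase of the endoplasmic reticulum, was 5.62-fold higher (log2FC 2.49 ± 0.34, adjusted p = 0.00241). Slfn8, a Schlafen family gene of mice, was at 5.07, 3.53 and 3.59 CPM in WT + MSU and at 50.2, 125.0 and 33.0 CPM in CD38KO + MSU (adjusted p = 0.00432, log2FC 4.09 ± 0.64). Rgs18, a regulator of G protein signalling, was 4.09-fold higher (log2FC 2.03 ± 0.30). Ctsk, the collagen-cleaving protease of osteoclasts, was at 15.4, 21.2 and 22.4 CPM in WT + MSU and at 35.2, 47.4 and 56.2 CPM in CD38KO + MSU (adjusted p = 0.00873, log2FC 1.23 ± 0.21). It was the 1 called of 11 osteoclast genes. Folr2, a folate receptor of resident macrophages, was the 1 called of 18 alternative activation genes, 3.47-fold higher (log2FC 1.80 ± 0.33, adjusted p = 0.0102, lost without CD38KO + MSU replicate 1). The cell cycle list had 1 gene in each direction, E2f1 higher (log2FC 1.29 ± 0.25) and Ccnd2 lower (−2.27 ± 0.41), and omitting CD38KO + MSU replicate 1 or WT + MSU replicate 2 ended both calls.

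Several lists held no call. These were the interferon-stimulated genes (30 tested, median −0.43), sterol and fatty acid synthesis (25, −0.26), the lysosome and phagosome (30, 0.14), the heat shock chaperones (14, −0.03), the circadian clock (15, −0.08), the genes of the mitochondrial genome (13, −0.61) and the calcium channels and NAD-derived messengers (14, −0.14). In the lysosome list, the cathepsin gene Ctsl was at 1010, 1312 and 2357 CPM in WT + MSU and at 4916, 3086 and 4278 CPM in CD38KO + MSU and missed the threshold by a narrow margin (log2FC 1.39 ± 0.38, adjusted p = 0.0504). Of 22 genes of NAD metabolism only Bst1 was called, since Cd38 was kept out of the list.

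Without MSU, 476 genes were lower and 44 higher in CD38KO than in WT, 3.96% and 0.366% of those tested. This comparison shares no libraries with the one under MSU, but the 2 were not shown to be independent. Fibroblast marker sums in WT replicates 1, 2 and 3 were 1675, 4438 and 755 CPM under MSU. Without MSU they were 2556, 3092 and 639 CPM. The labels do not say whether same-numbered libraries came from the same animals. Of the 319 genes lower under MSU, 255 were lower without MSU too, which is 79.9% of the former and 53.6% of the 476. Of the 86 higher, 27 were higher without MSU, 31.4% of the former and 61.4% of the 44. No gene was called in opposite directions. The median log2FC of the 319 genes was −3.41 without MSU. Cxcl5 was at 4.80, 3.35 and 4.28 CPM in WT non-treated and 0.334, 0.118 and 0.307 CPM in CD38KO non-treated BMDMs, so the genotypes also differed in cultures kept without crystals. For Vegfa and Cd14, which were lower under MSU, the log2FC without MSU was −0.34 (adjusted p = 0.773) and −0.12 (adjusted p = 0.935). Cd14 was at 167.0, 157.0 and 166.0 CPM in WT non-treated and 179.0, 136.0 and 135.0 CPM in CD38KO non-treated BMDMs. The difference between the 2 genotype comparisons was itself tested as an interaction, and no gene was called (0.0% of those tested, smallest adjusted p = 0.357). Of the 12025 genes, 427 had an unadjusted p under 0.05. That is a smaller share than the 0.05 awaited where no gene has an interaction. The fit took libraries with and without MSU as independent, so this share does not show that no gene has an interaction. DESeq2 called 20 genes by interaction. A call under MSU and none without it therefore does not show that the difference between genotypes changed with MSU.

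**Figure D5:**
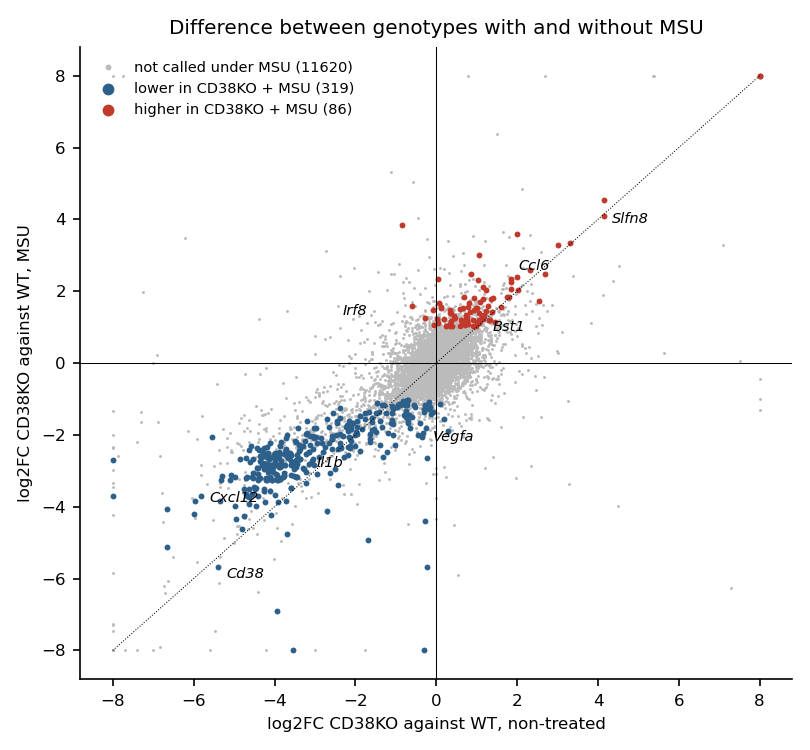
log2FC of CD38KO against WT without MSU (x axis) and under MSU (y axis) for the 12025 tested genes, with genes lower under MSU in blue and higher in red. Values beyond 8 in size are drawn at 8, and 255 of the 319 blue and 27 of the 86 red genes were also called without MSU.

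The genes around Cd38 were called more often than others. Within 20 Mb of its start, 12 of 149 tested genes were called, Cd38 included (8.05%), against 19 of 597 on the rest of chromosome 5 (3.18%) and 374 of 11279 on the other chromosomes (3.32%). No test was run on these shares. Of the 12, 8 were lower (Cd38, Emilin1, Cad, Fosl2, Wfs1, Evc2, Nsg1 and Sod3) and 4 higher (Bst1, Abhd1, Pcdh7 and AI839979). Wfs1, which encodes the endoplasmic reticulum protein wolframin, lies before Cd38. It was at 31.2, 44.1 and 35.9 CPM in WT + MSU and 11.7, 11.3 and 12.7 CPM in CD38KO + MSU (adjusted p = 0.0223, log2FC −1.64 ± 0.36). Its CD38KO libraries were nearly equal, and fitting the 2 groups by themselves kept its call, which omitting CD38KO + MSU replicate 1 or WT + MSU replicate 2 ended. Abhd1, farther before Cd38, was at 0.187, 0.389 and 0.226 CPM against 2.67, 2.39 and 3.13 CPM (log2FC 3.34 ± 0.65), and it overlaps Preb on the opposite strand. The DNA around Cd38 in the CD38KO line was not analysed here.

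Some of the largest differences were in genes that may share reads. The ribosomal protein gene Rpl34 was 23.1-fold higher in CD38KO + MSU (188.0, 176.0 and 276.0 CPM against 10.8, 9.03 and 7.86 CPM), while its processed copy Rpl34-ps1 on chromosome 6 was 4.67-fold lower (34.9, 36.8 and 59.6 CPM against 214.0, 203.0 and 196.0 CPM). The copies are near-identical, so how reads were divided between them is uncertain. Adnp was at 0 CPM in CD38KO + MSU, at least 1286-fold lower, and the overlapping Gm20716 on the same strand at 0 CPM in WT + MSU, at least 1804-fold higher in CD38KO + MSU (both against the CPM of 3 counts in 1 library), although Gm20716 did not pass the test (adjusted p = 0.0504). Without MSU, Adnp was at 0 CPM in CD38KO replicate 1 and in WT replicate 3, so this pattern did not follow the genotype.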

How the data were processed

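RNA-seq was done on BMDMs, and 6 groups of 3 libraries were used. Per the labels, libraries were poly(A)-selected and stranded. Tools listed in the submitters' processing notes were HISAT2, StringTie, cutadapt, edgeR and FastQC. Their versions, and the genome build, were not given in the sources used here. A table of unscaled read counts per gene was deposited by the authors and, beside the counts, FPKM values that the authors had scaled by gene length and library size. Their table of fold changes and p-values was not used. All 55450 gene IDs matched GENCODE M21 (GRCm38), which gave the positions.

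Counts were fitted with edgeR 4.0.16 (quasi-likelihood test, TMM factors, R 4.3.3) in 1 model of 6 groups, so that all 18 libraries, those given apigenin included, shared 1 estimate of the spread. FPKM served to filter genes. The error after ± on a log2FC is |log2FC| divided by the square root of F. The fit was tested on simulated data. Alternatives were library totals, RLE factors, DESeq2 1.42.0, limma 3.58.1 on log2(FPKM + 0.5) and log2(FPKM + 0.1), other filters and sets of libraries, a replicate block, and each library left out. Genes were drawn by rule: Cd38, genes the study names, the 15 lowest and 15 highest called whose groups did not overlap, passing over gene models with no known role (Gm, Rik and AI names), up to 4 called per list (up to 2 by size where none was called), those called in the 2 groups by themselves or within 20 Mb of Cd38, and the 2 smallest interaction p-values. Not all are discussed. Left out of the lowest were Gchfr, Crabp2, Krt19, Gcnt2, Syt13, Lmcd1, Ecscr and mt-Tl2. Left out of the highest were Tmem52, Ctnnd2, Cmbl, Efr3b, Platr17 and Rpl7a-ps3. Esm1, with the smallest interaction p, was left out as well. Col1a1, markers, the chemokine promoters shown and the genes kept in every fit that left out 1 library were chosen after their values were seen. The members and lists were chosen with earlier results of these data known. A result on 1 gene of the matrix list is not reported here.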

Additional observations from a re-analysis of the deposited data

Results flagged for a closer look

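Irf8, which encodes a transcription factor of the monocyte lineage, differed in opposite directions with and without MSU. It was at 140.0, 161.0 and 130.0 CPM in CD38KO + MSU and at 47.2, 86.0 and 63.4 CPM in WT + MSU (adjusted p = 0.0748, log2FC 1.13). In non-treated BMDMs it was at 50.3, 79.3 and 72.7 CPM in CD38KO and at 183.0, 179.0 and 216.0 CPM in WT (log2FC −1.52, adjusted p = 0.0158). The CD38KO libraries lay above all WT libraries under MSU and below all of them without it. The interaction of genotype and MSU was 2.65 on the log2 scale and did not pass the test over all genes (edgeR, adjusted p = 0.413).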

How the results depend on the processing

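The 319 lower and 86 higher genes became 635 and 171 with DESeq2, 8 and 6 with the 2 groups by themselves, 8 and 15 with replicate 3 as the one library of each WT group, and 625 and 207 with only the libraries whose Xist was under 1 CPM, which leaves 1 WT + MSU library, assumed to vary like the others. With library totals 57 genes were higher, and the median of all genes shifted by −0.13. Leaving out each library in turn gave 30 to 345 lower and 18 to 141 higher genes. Calls higher were 21.2% of all calls, against 42.9% with the 2 groups by themselves, 65.2% with WT replicate 3, 15.4% with library totals, 30.8% on omitting WT + MSU replicate 2, and 37.5%, 33.6% and 13.3% on omitting CD38KO + MSU replicates 1, 2 and 3. For the interaction, DESeq2 called 20 genes, limma on log2(FPKM + 0.5) 2, no filter 1, low-Xist libraries 1, and leaving out each library 0 to 2. Without MSU, WT replicate 3 gave 40 lower genes and DESeq2 83 higher. Xaf1 turned direction, with a log2FC of 0.54 in the low-Xist libraries. The cause was not tested.

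With a replicate block, 405 genes were lower and 136 higher under MSU, and 83 higher without MSU. Same-numbered libraries of CD38KO + MSU and WT + MSU did not deviate together (correlations −0.015, −0.031 and −0.068), so the numbers were not taken as pairs between genotypes. Within WT, replicate 3 had the lowest fibroblast marker sum under MSU (755 CPM) and without it (639 CPM). Whether same-numbered libraries of a genotype shared a culture was not tested. The fit of 6 groups took all 18 libraries as independent. At these depths the spread between libraries, more than counting error, limited the precision.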
